A study of Arabidopsis thaliana with 12 samples.

Results

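The nuclear genome of Arabidopsis thaliana encodes the light-harvesting proteins of both photosystems and many of their other subunits, and 44 of these genes were followed here among the 23916 genes of the deposited expression table. They were chosen by locus code from the names of the protein families, with earlier results of these data known. They comprise the 4 main antenna genes of photosystem I (LHCA1 to LHCA4), 9 genes of the major antenna of photosystem II (LHCB1 to LHCB3), 4 of its minor antenna (LHCB4.1, LHCB4.2, LHCB5 and LHCB6), 4 antenna genes that are less often studied (LHCA5, LHCA6, LHCB4.3 and LHCB7) and PSBS. The remaining members were 13 genes named as photosystem I subunits, 6 genes of the oxygen-evolving side of photosystem II and 3 of its small subunits. PSAP, also known as CURT1B, is among the 13 by its name only. All 44 passed the filter on low values and were tested.

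Transcripts were measured by RNA sequencing of whole seedlings that were 10 days old and grown at 22 °C (light for 16 h, dark for 8 h a day), in 4 genotypes with 3 libraries each. Col is the wild type. The genotypes h3.3ko;HTR5 T31A and h3.3ko;HTR5 K36A, called T31A and K36A here, are labelled as a knockout of histone H3.3 that carries a copy of the H3.3 gene HTR5 with alanine in place of threonine 31 or of lysine 36. The libraries labelled efs come from a mutant named for EFS, also known as SDG8, which methylates lysine 36 of H3. The labels give neither the promoter of the HTR5 copy, nor the number of lines, nor the lesion in efs, and a knockout with an unmutated HTR5 copy was not analysed here. A difference of T31A or K36A from Col can therefore come from the knockout, from the copy or from its substitution. The labels do not tell whether each library had its own planting, so the p-values rest on a spread that may be technical.

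Each photosystem joins a reaction centre, where light energy drives charge separation, to an antenna of chlorophyll-binding proteins that collect light and pass its energy on. Photosystem II takes electrons from water with the help of a manganese cluster shielded by the PSBO, PSBP and PSBQ proteins, and photosystem I passes electrons to ferredoxin. The reaction centre cores are encoded in the chloroplast, whereas the antenna and the outer subunits come from nuclear genes whose transcripts are among the most abundant of green tissue.

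The files held TPM values, a level scaled by gene length and library size. The length used was the span of a gene with its introns, which lowers the level of intron-rich genes. Whole reads could be recovered from the values and summed to 17621000 to 34098031 per library, and 99.9766 to 99.988% of values were whole within 0.01 of a read. The genotype labels were checked on the targeted genes. HTR8, another H3.3 gene, was at 108 to 147 TPM in Col, 12.4 to 18.7 in T31A, 18.1 to 22.5 in K36A and 214 to 224 in efs, and EFS itself ranged from 13.6 to 20.3 TPM over the 12 libraries, so its level checked no label. HTR4, a further H3.3 gene, was at 234 to 304 TPM in Col, and its mean in T31A and K36A was 69.6 and 60.4% of that in Col. HTR5 was at 282 to 352 TPM in Col and at 587 to 681 in T31A and K36A, where the native gene and the added copy cannot be told apart. The knockout libraries thus had little HTR8 but kept much of the HTR4 level, and the labels do not say which lesions the knockout holds. Pearson correlations between libraries of a genotype were 0.9859 to 0.9943 in Col and 0.9896 to 0.9952 in the mutants. Col replicate 1 differed from the rest. Its transcripts of at most 1230 bases lay 0.26 log2 units low against those of at least 2299 bases, against −0.05 to 0.15 in the remaining 11. The members have short transcripts, with a median length of 1204 bases against 1638 over all protein-coding genes, so the main counts below are given with and without that library.

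The sequences before the start sites of 6 antenna genes are shown because these closely related copies moved by different amounts. LHCB1.1, LHCB1.2 and LHCB1.3 lie together on chromosome 1, and their coding sequences are 95.65 to 96.39% identical. LHCB1.4 and LHCB1.5 lie side by side on chromosome 2, on opposite strands and read away from each other, and are 92.45% identical in coding sequence. LHCB2.1 and LHCB2.2, also on chromosome 2 and both on the minus strand, are 92.86% identical. The 250 bases before the annotated start are given 5′ to 3′ from the RefSeq genome of build TAIR10.1, on the strand of the gene, with capitals for the motifs named after them. They lie at chr1:10475970-10476219 (minus strand) for LHCB1.1, chr1:10473503-10473752 (minus) for LHCB1.2, chr2:14524357-14524606 (plus) for LHCB1.4, chr2:14523569-14523818 (minus) for LHCB1.5, chr2:1824481-1824730 (minus) for LHCB2.1 and chr2:1800473-1800722 (minus) for LHCB2.2.
LHCB1.1: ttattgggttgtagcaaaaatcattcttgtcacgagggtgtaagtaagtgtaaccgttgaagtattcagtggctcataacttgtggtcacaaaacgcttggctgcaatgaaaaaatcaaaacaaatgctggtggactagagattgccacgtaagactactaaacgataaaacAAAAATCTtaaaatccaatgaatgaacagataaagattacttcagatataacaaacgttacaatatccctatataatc
LHCB1.2: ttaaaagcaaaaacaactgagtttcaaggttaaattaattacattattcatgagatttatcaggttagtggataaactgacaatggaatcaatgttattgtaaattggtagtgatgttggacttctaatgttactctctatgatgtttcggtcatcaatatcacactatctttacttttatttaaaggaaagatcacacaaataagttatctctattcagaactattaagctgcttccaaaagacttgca
LHCB1.4: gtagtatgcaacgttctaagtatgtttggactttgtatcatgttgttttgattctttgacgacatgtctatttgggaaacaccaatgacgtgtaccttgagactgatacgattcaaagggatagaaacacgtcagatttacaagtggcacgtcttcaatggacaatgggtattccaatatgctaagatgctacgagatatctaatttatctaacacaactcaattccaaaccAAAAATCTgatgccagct
LHCB1.5: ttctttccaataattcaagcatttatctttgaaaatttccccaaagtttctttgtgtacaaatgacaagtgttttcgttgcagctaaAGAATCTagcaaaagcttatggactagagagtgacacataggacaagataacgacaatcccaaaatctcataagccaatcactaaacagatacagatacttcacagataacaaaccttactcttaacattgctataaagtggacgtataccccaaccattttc
LHCB2.1: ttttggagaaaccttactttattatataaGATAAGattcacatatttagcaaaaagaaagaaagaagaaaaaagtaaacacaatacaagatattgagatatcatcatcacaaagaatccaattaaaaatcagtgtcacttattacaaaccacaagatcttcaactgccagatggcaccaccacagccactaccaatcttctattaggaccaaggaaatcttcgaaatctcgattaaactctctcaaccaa
LHCB2.2: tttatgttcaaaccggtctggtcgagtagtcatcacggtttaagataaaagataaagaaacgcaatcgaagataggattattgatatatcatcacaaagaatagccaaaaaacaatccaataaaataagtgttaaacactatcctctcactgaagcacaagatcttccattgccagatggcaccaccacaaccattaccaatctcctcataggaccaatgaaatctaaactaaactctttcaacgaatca
The capitals mark AAAAATCT, a binding sequence of the clock factor CCA1, in LHCB1.1 and LHCB1.4, the reverse complement of AGATTCT, a binding sequence of the greening factors GLK1 and GLK2, in LHCB1.5, and the I-box GATAAG in LHCB2.1. No searched motif is in the stretches shown for LHCB1.2 and LHCB2.2.

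Over windows of 250 bases before to 50 bases after the start, on both strands, the motifs were also counted in all members and in 23743 genes of the table. No searched motif contains another. The G-box CACGTG was in 15 of 44 members (34.1%) against 8.38% of all windows. The I-box GATAAG was in 17 (38.6%) against 14.7%, and AGATTCT in 8 (18.2%) against 7.52%. AAAAATCT was found in 6 members (13.6% against 7.86%), AACAATCT in 2 (4.55% against 2.23%) and the evening element AAATATCT in 2 (4.55% against 5.82%). The 6 members with AAAAATCT had a median log2 difference from Col of −0.15 in efs, −0.39 in K36A and −0.18 in T31A, and the 38 without it −0.29, −0.23 and −0.11. With a G-box the medians in efs, K36A and T31A were −0.26, −0.20 and −0.08, and without one −0.28, −0.25 and −0.14. Members with an I-box had medians of −0.27, −0.23 and −0.08, and those without it −0.28, −0.24 and −0.14. For AGATTCT they were −0.23, −0.26 and −0.09 with it and −0.30, −0.23 and −0.15 without it. These medians are a description without a test.

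In the wild type the members held a large part of the transcript pool, and the part was smaller in each mutant. Their summed TPM was 16.3, 17.9 and 16.9% of the total in the Col libraries. The T31A libraries gave 15.7, 14.5 and 16.0%, the K36A libraries 14.5, 15.04 and 13.6%, and the efs libraries 13.5, 14.0 and 13.2%. Every mutant library lay below every Col library. By mean TPM, 13 of the 20 and 29 of the 50 most abundant genes were members. In Col, LHCB1.3 (25231 ± 4032 TPM, SD, n = 3) and LHCB1.5 (24671 ± 3048) had the highest levels and LHCB4.3 (9.41 ± 1.46) the lowest. In whole seedlings, fewer green cells and less RNA per green cell cannot be told apart.

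The members called against Col fell in each mutant, apart from LHCB4.3, which rose in K36A. A member was called when its limma test on log2(TPM + 1), adjusted by Benjamini-Hochberg over all 19984 genes tested, gave an adjusted p under 0.05. In T31A, 12 members (27.3%) fell and 0 rose, where 11.1% of all genes fell and 15.7% rose. In K36A, 21 (47.7%) fell and 1 rose, against 8.9% and 22.6% of all genes. In efs, 27 (61.4%) fell and 0 rose, against 17.4% and 31.4%. At an unadjusted p under 0.05, 0 members were higher in T31A and 0 in efs. The median log2 difference of the members was −0.14, −0.24 and −0.28 in T31A, K36A and efs, beside 0.04, 0.09 and 0.12 over all genes. Quantile normalization brought the members' medians to −0.052, −0.075 and −0.184. With the length and GC trend removed the K36A and efs medians were −0.432 and −0.431, and 37 and 38 members fell (84.1 and 86.4%). In that fit 15.6 and 22.9% of all genes fell. Among the 1512 other genes with a mean of at least 100 TPM, 16.3, 13.4 and 30.0% fell and the medians were 0.02, 0.05 and 0.05.

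The libraries of 17 members in T31A, 22 in K36A and 29 in efs lay wholly below those of Col, where 16.5, 11.9 and 19.5% of all genes did so. Without Col replicate 1, the members that fell numbered 14, 31 and 38 (31.8, 70.5 and 86.4%), where 9.97, 8.68 and 16.7% of all genes fell. The T31A count dropped to 7 (15.9%) on leaving out Col replicate 2 or either of T31A replicates 1 and 3. In those fits 8.34 to 10.7% of all genes fell. When only the 6 libraries compared were fitted, 7 members fell in T31A (15.9%) and 9 in K36A (20.5%). In those fits 8.8 and 5.9% of all genes fell. Quantile normalization gave the same counts, 7 and 9, and 18 in efs (40.9%), where 13.9, 14.9 and 21.9% of all genes fell. Under it the T31A share was thus near that of all genes. Quantile normalization gives each rank the same value in every library, and 29 of the 50 most abundant genes are members. A joint fall of such top-ranked genes is partly removed by the method itself. A call lost under it therefore does not decide whether an abundant member fell. With median-of-ratios factors, which centre each library on the typical gene, 13, 24 and 28 members fell while 14.99, 15.7 and 23.4% of all genes did. Of the 27 members that overlap no other annotated gene, 8, 13 and 18 fell (29.6, 48.1 and 66.7%). In the main fit 11.1, 8.9 and 17.4% of all genes fell. The 3 comparisons share the Col libraries, so their counts are not independent of each other.

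Several calls described below depend on the scaling, the genes tested or the libraries fitted. Quantile normalization ended the T31A calls of LHCA4, PSBS, PSAD2, PSAP and PSBY, with log2 differences of −0.31 to −0.06 and adjusted p of 0.068 to 0.544. In K36A it ended 13 calls, those of LHCA1, LHCA3, LHCA4, LHCB3, LHCB4.2, LHCB6, PSAD1, PSAD2, PSAF, PSAN, PSBO1, PSBO2 and PSBP1 (−0.18 to 0, adjusted p = 0.066 to 1). In efs it ended 9, those of LHCA2, LHCA3, LHCB1.3, LHCB4.2, LHCB5, PSAD1, PSAF, PSAH2 and PSBO1 (−0.20 to 0.06, adjusted p = 0.090 to 0.617). Between mutants it ended both calls of PSBP1, against K36A and against efs. The calls of LHCB1.1, LHCB2.1, LHCB2.2 and LHCB2.3 against Col held under it in all 3 mutants.

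Testing all genes without the filter ended the calls of LHCA4, LHCB7 and PSAD2 in T31A, of LHCA1, LHCB6, PSAF, PSBO1 and PSBO2 in K36A and of LHCB1.3, LHCB5, PSAF and PSAH2 in efs (adjusted p = 0.053 to 0.105), and between mutants those of LHCA4 and LHCB6 (K36A and efs), PSAD2 (T31A and efs) and PSBP1 (T31A and K36A). Fitting only the 6 libraries compared ended those of LHCA4, LHCA6, PSBS, PSAD2 and PSAP in T31A and of LHCB5, PSAF and PSAH2 in efs. In K36A that fit ended 12 calls, of LHCA1, LHCA3, LHCB6, LHCB7, PSBS, PSAD1, PSAD2, PSAF, PSAP, PSBO1, PSBO2 and PSBP1 (adjusted p = 0.052 to 0.149).

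**Figure D1:**
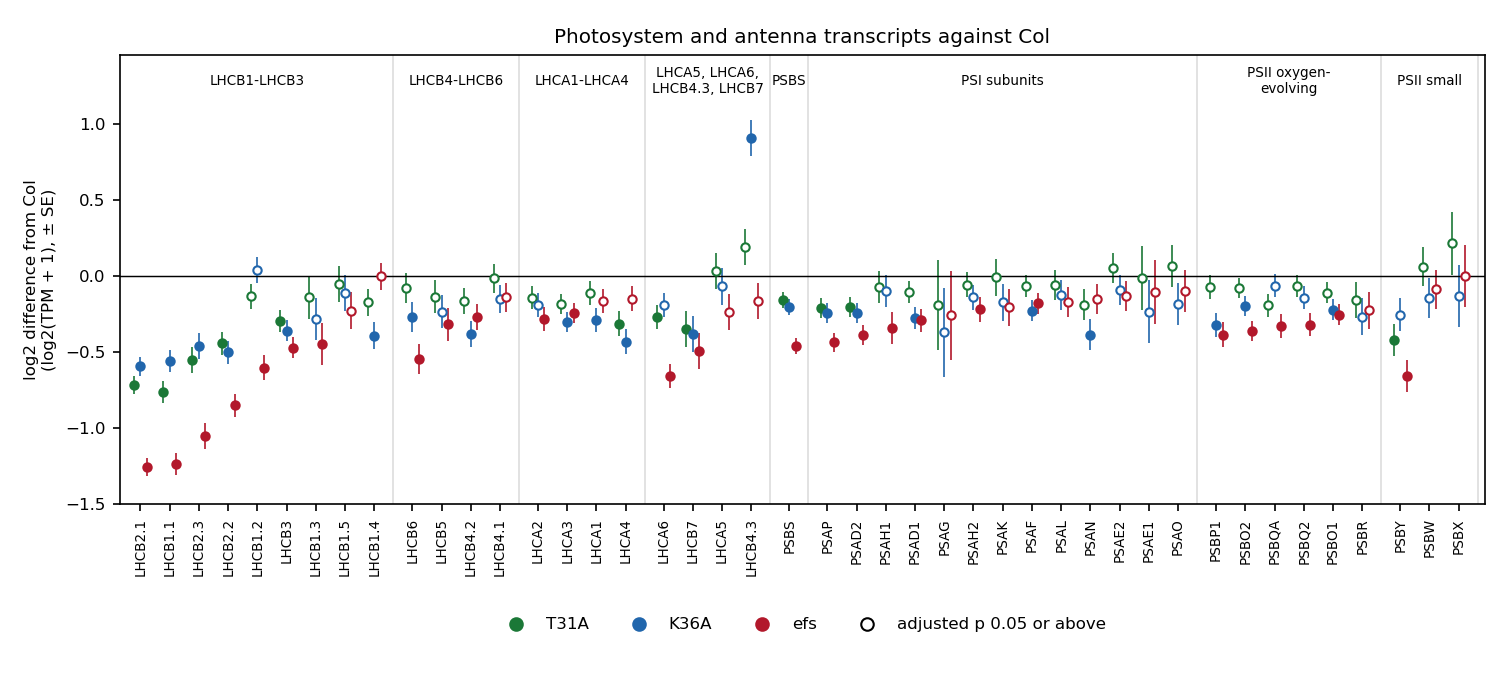
Log2 difference from Col on the log2(TPM + 1) scale for each of the 44 members, grouped by role, in T31A, K36A and efs; points are estimates, whiskers are SE from limma (n = 3 libraries a genotype), and open points have an adjusted p of 0.05 or above. LHCB2.1, LHCB1.1 and LHCB2.3 lie lowest, below −1 in efs, and LHCB4.3 in K36A is the only filled point above 0.

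The major antenna of photosystem II, the trimers of LHCB1 to LHCB3 that bind much of the plant's chlorophyll, held the members with the lowest log2 differences. Of its 9 genes, T31A had 5 lower, K36A 6 and efs 7. Those shares are 55.6, 66.7 and 77.8%, where 11.1, 8.9 and 17.4% of all genes fell. LHCB2.1 (AT2G05100), whose product is phosphorylated when antenna moves between the photosystems, was at 2618, 2820 and 2864 TPM in Col and at 1669, 1642 and 1727 in T31A. It was at 1839, 1842 and 1804 in K36A and at 1152, 1163 and 1149 in efs. The 4 genotypes did not overlap, with efs lowest, then T31A, then K36A. The log2 differences from Col were −0.72 in T31A (SE 0.06, adjusted p = 1.1e-06), −0.60 in K36A (adjusted p = 8.7e-06) and −1.26 in efs (adjusted p = 8.1e-10). T31A and K36A did not pass the test against each other (log2 difference −0.12, SE 0.06, adjusted p = 0.16).

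LHCB2.2 (AT2G05070), the near copy of LHCB2.1, fell as well. It was at 2072, 2449 and 2403 TPM in Col, with T31A at 1712, 1590 and 1778, K36A at 1653, 1649 and 1570 and efs at 1294, 1273 and 1251. The mutant libraries all lay below Col, and the log2 differences were −0.44, −0.50 and −0.85 (adjusted p = 5.6e-04, 2.1e-04 and 4.0e-07). LHCB2.3 (AT3G27690) had 332, 425 and 431 TPM in Col, with T31A at 274, 254 and 276, K36A at 289, 298 and 270 and efs at 192, 186 and 188. Its groups also lay apart from Col, with log2 differences of −0.55, −0.46 and −1.06 (adjusted p = 3.1e-04, 0.0013 and 2.0e-07). An annotated gene on the other strand covers 37.6% of its span. LHCB3 (AT5G54270), a trimer partner that lacks the phosphorylation site, fell from a mean of 5058 ± 258 TPM to 4107 ± 54.0, 3936 ± 175 and 3641 ± 63.5.

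The 5 LHCB1 genes, which encode the most abundant antenna protein, went different ways, and LHCB1.1 and LHCB1.2 are named here after their values were seen. LHCB1.1 (AT1G29920), also known as CAB2, was at 3710, 3912 and 3591 TPM in Col and 2233, 2071 and 2290 in T31A. It was at 2470, 2732 and 2399 in K36A and 1554, 1655 and 1539 in efs. No mutant library reached the Col range, and the log2 differences were −0.77, −0.56 and −1.24 (SE 0.07, adjusted p = 3.9e-06, 8.3e-05 and 7.5e-09). LHCB1.2 (AT1G29910), its neighbour in the cluster, had 4848, 5817 and 5370 TPM in Col, with T31A at 4988, 4551 and 5025, K36A at 5539, 5577 and 5297 and efs at 3339, 3695 and 3491. Its efs libraries lay below all others (log2 difference −0.60, SE 0.08, adjusted p = 4.2e-05), while T31A (−0.14, adjusted p = 0.26) and K36A (0.04, adjusted p = 0.77) overlapped Col. Reads that fit more than 1 of these copies may have been divided or dropped in a way the sources used here do not state.

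LHCB1.3 and LHCB1.5 gave most of the LHCB1 transcripts. LHCB1.3 (AT1G29930) had 29704, 24113 and 21875 TPM in Col, with T31A at 23558, 20390 and 24234, K36A at 20012, 24461 and 17728 and efs at 18460, 19060 and 17502. It fell in efs (log2 difference −0.45, SE 0.14, adjusted p = 0.016), but did not pass without Col replicate 1 (adjusted p = 0.0543) or efs replicate 3 (0.0536). LHCB1.5 (AT2G34420) overlapped Col in each mutant, at 21532, 27618 and 24864 TPM in Col, with T31A at 24721, 21116 and 25207, K36A at 23499, 23998 and 20713 and efs at 20921, 22219 and 19699. The annotation places other genes over its whole span, so its reads are uncertain. It fell in efs without Col replicate 1 (−0.32, adjusted p = 0.0314). LHCB1.4 (AT2G34430) was at 3795, 4388 and 4285 TPM in Col, with T31A at 3745, 3388 and 3919, K36A at 3167, 3412 and 2903 and efs at 4044, 4342 and 4018. Only its K36A libraries lay below Col (log2 difference −0.40, SE 0.09, adjusted p = 0.0042), and K36A was also lower than efs (−0.39, adjusted p = 0.0031).

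**Figure D2:**
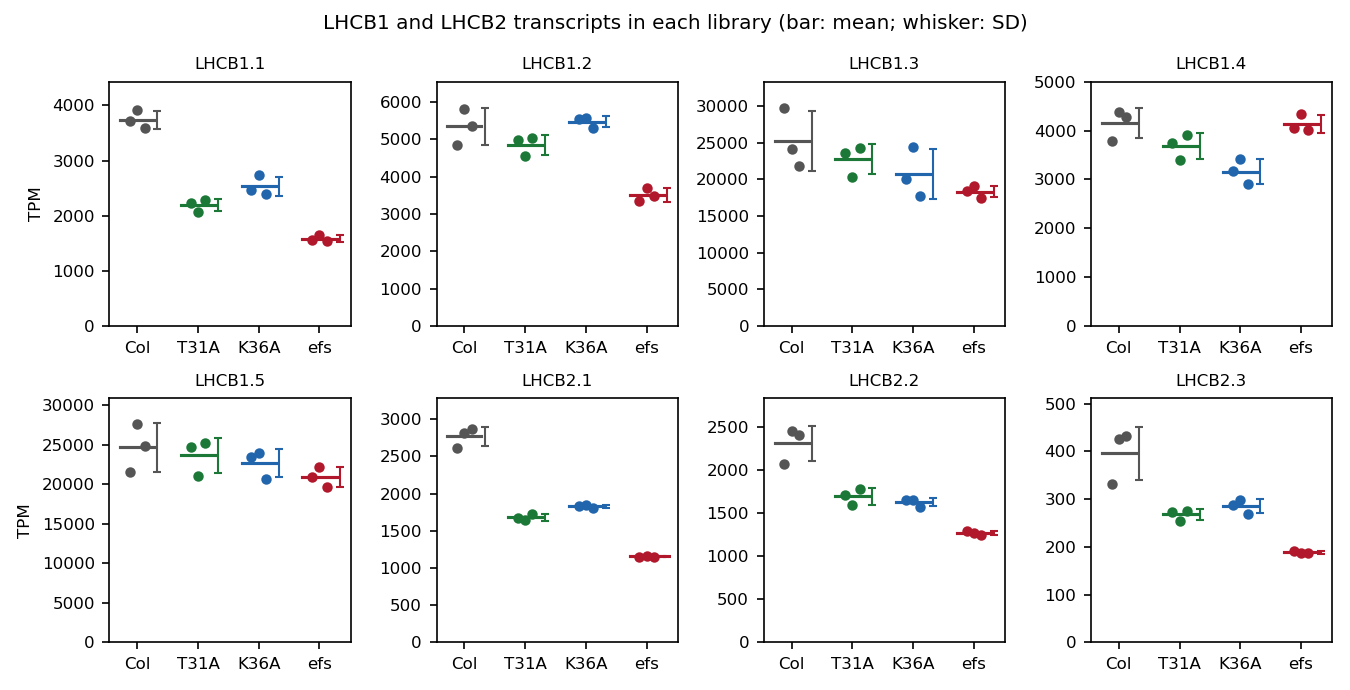
TPM of the 5 LHCB1 and 3 LHCB2 genes in each of the 12 libraries, by genotype; points are libraries, bars are means and whiskers are SD (n = 3), and each panel has its own axis from 0. The efs libraries are lowest for LHCB1.1, LHCB1.2 and the 3 LHCB2 genes, whereas for LHCB1.4 they lie within the Col range.

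Within the LHCB1 family the copies made up different shares in the 4 genotypes. LHCB1.1 made up 5.83, 5.94 and 5.99% of the summed LHCB1 TPM in Col. Its share was 3.77, 4.02 and 3.77% among T31A libraries, 4.52, 4.54 and 4.89% for K36A and 3.22, 3.25 and 3.33% for efs. LHCB1.4 made up 5.97, 6.66 and 7.14% in Col and 8.37, 8.52 and 8.69% in efs. The share of LHCB1.3 was 46.7% in Col replicate 1 and 36.2 to 40.6% in the other 11 libraries.

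The minor antenna proteins sit as monomers between the trimers and the photosystem II core. LHCB6 (AT1G15820), also called CP24, was at 3587, 4427 and 3766 TPM in Col, with T31A at 3857, 3317 and 3928, K36A at 3258, 3460 and 3004 and efs at 2689, 2841 and 2514. Its efs libraries lay below all others (log2 difference −0.55, SE 0.10, adjusted p = 3.8e-04), and T31A overlapped Col (−0.08, adjusted p = 0.57). Annotated genes on the other strand cover 32.5% of its span. In K36A the difference was −0.27 (adjusted p = 0.047), and 9 of the 12 fits that left out a library ended the call, with adjusted p of 0.0541 to 0.181; it held without Col replicate 1, K36A replicate 2 and T31A replicate 2. LHCB4.1 (AT5G01530), the main CP29 gene, overlapped Col in each mutant, with 4483, 4571 and 4121 TPM in Col, with T31A at 4521, 3916 and 4591, K36A at 4080, 4293 and 3507 and efs at 3944, 4184 and 3802. LHCB4.2, the other CP29 gene, fell in K36A (log2 difference −0.38, adjusted p = 0.0045) and in efs (−0.27, adjusted p = 0.018), the latter lost without Col replicate 2 (0.0821) or efs replicate 3 (0.077). Under quantile normalization these were −0.08 (adjusted p = 0.374) and −0.07 (0.396). LHCB5, or CP26, fell in efs (−0.32, adjusted p = 0.025), with adjusted p of 0.0563 to 0.0969 without Col replicate 2 or 3 or efs replicate 1 or 2. Without Col replicate 1, LHCB5 also fell in T31A (−0.26, adjusted p = 0.0498) and K36A (−0.36, adjusted p = 0.00831).

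LHCB4.3 (AT2G40100) was the single member that rose. It encodes another, shorter form of CP29 and had 7.83, 10.7 and 9.69 TPM in Col, with T31A at 10.3, 10.4 and 11.6, K36A at 17.4, 16.9 and 21.0 and efs at 8.42, 9.14 and 7.17. The K36A libraries lay above all others, with a log2 difference from Col of 0.90 (SE 0.12, adjusted p = 7.8e-05). T31A (0.19, adjusted p = 0.27) and efs (−0.17, adjusted p = 0.26) overlapped Col. K36A was higher than T31A by 0.72 (adjusted p = 4.3e-04) and than efs by 1.07 (adjusted p = 6.2e-06). These values rest on 104 to 327 reads a library, and no other annotated gene overlaps the gene.

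LHCA6 (AT1G19150), which with LHCA5 helps to join photosystem I to the NDH complex, had 153, 193 and 188 TPM in Col, with T31A at 145, 147 and 148, K36A at 156, 149 and 161 and efs at 109, 118 and 108. Its efs libraries lay below all others (log2 difference −0.66, SE 0.08, adjusted p = 9.0e-06). The T31A difference was −0.27 (adjusted p = 0.021) and was lost without Col replicate 2 or 3 or any T31A library (0.0518 to 0.0817). Without Col replicate 1, LHCA6 also fell in K36A (−0.29, adjusted p = 0.00124). LHCA5 passed in no comparison (0.03, −0.07 and −0.24 in T31A, K36A and efs). Its differences without Col replicate 1 were −0.15, −0.25 and −0.42, and those in K36A and efs passed (adjusted p = 0.0177 and 0.000358). LHCB7 had 24.3, 31.8 and 24.9 TPM in Col and log2 differences of −0.35, −0.38 and −0.50 (adjusted p = 0.041, 0.025 and 0.0034). The LHCB7 call in T31A was lost without any T31A library, Col replicate 2, K36A replicate 1 or efs replicate 3 (0.0535 to 0.166), and in K36A without Col replicate 2 (0.112) or K36A replicate 2 (0.109).

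Of the main photosystem I antenna genes, which form a belt along the core, T31A had 1 of 4 lower, K36A 3 and efs 2. Those shares are 25, 75 and 50%, where 11.1, 8.9 and 17.4% of all genes fell. LHCA4 (AT3G47470), whose product holds the red-most chlorophylls of the belt, was at 5730, 6578 and 6805 TPM in Col, with T31A at 4971, 5202 and 5141, K36A at 4613, 4562 and 4937 and efs at 5507, 5788 and 5881. T31A and K36A lay below Col (log2 differences −0.32 and −0.43, SE 0.08, adjusted p = 0.011 and 0.0014), and efs overlapped Col (−0.15, adjusted p = 0.14). K36A was also lower than efs (log2 difference −0.28, adjusted p = 0.014), a call lost without K36A replicate 1 (0.0529) or efs replicate 3 (0.0522). Quantile normalization brought the LHCA4 differences from Col to −0.14 in T31A (adjusted p = 0.156) and −0.18 in K36A (0.066), and without Col replicate 1 LHCA4 also fell in efs (−0.23, adjusted p = 0.0173). LHCA2 (AT3G61470) was at 4616, 4856 and 4550 TPM in Col, with T31A at 4316, 3966 and 4416, K36A at 4214, 4261 and 3795 and efs at 3792, 3966 and 3750. The libraries of each mutant lay below Col, and the efs difference passed (−0.28, SE 0.08, adjusted p = 0.0072) while those of T31A (−0.14, adjusted p = 0.18) and K36A (−0.19, adjusted p = 0.069) did not. LHCA1 fell in K36A (−0.29, adjusted p = 0.011), and LHCA3 in K36A (−0.30, adjusted p = 0.0038) and efs (−0.25, adjusted p = 0.0076). Without Col replicate 1, LHCA1 also fell in efs (−0.22, adjusted p = 0.0251). Under quantile normalization, which partly removes a joint fall of top-ranked genes, LHCA1 in K36A was at 0. LHCA3 was then at −0.11 in K36A (limma, adjusted p = 0.305) and −0.07 in efs (0.455).

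PSBS (AT1G44575) senses acid in the thylakoid lumen and switches on the release of excess light energy as heat. It was at 748, 743 and 758 TPM in Col, with T31A at 680, 674 and 656, K36A at 631, 664 and 653 and efs at 539, 536 and 559. Each mutant lay below Col and efs below the other mutants. The log2 differences were −0.16, −0.21 and −0.46 (SE 0.05, adjusted p = 0.036, 0.0091 and 6.4e-06). The T31A call was lost in 8 of the 12 fits that left out a library (0.0517 to 0.122), those without Col replicate 2 or 3, K36A replicate 1, efs replicate 1 or 2 or any T31A library.

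Of the 13 photosystem I subunit genes, 2, 5 and 6 fell in T31A, K36A and efs. Those shares are 15.4, 38.5 and 46.2%, where 11.1, 8.9 and 17.4% of all genes fell, so the T31A share is near that of all genes. The lowest log2 difference in efs was that of PSAP (AT2G46820), also known as CURT1B, a small membrane protein that bends thylakoids. PSAP is counted among the 13 by its photosystem I name, and it is 1 of the genes that fell in each mutant. It had 784, 842 and 897 TPM in Col, with T31A at 717, 757 and 702, K36A at 707, 683 and 733 and efs at 608, 609 and 641. All mutant libraries lay below Col, with log2 differences of −0.21, −0.25 and −0.44 (SE 0.06, adjusted p = 0.026, 0.010 and 6.7e-05). The T31A call was lost without Col replicate 2 or 3 or T31A replicate 1 or 3 (0.052 to 0.0982). PSAD2, which with PSAD1 encodes the ferredoxin docking subunit, had log2 differences of −0.20, −0.25 and −0.39 (adjusted p = 0.035, 0.012 and 2.4e-04), and PSAD1 had −0.11, −0.28 and −0.30 (adjusted p = 0.29, 0.011 and 0.0042). For PSAD2 in T31A, the adjusted p was 0.0503 to 0.107 without Col replicate 1 or 2, K36A replicate 1, efs replicate 2 or any T31A library. PSAF, which receives plastocyanin, fell in K36A (−0.23, adjusted p = 0.023) and efs (−0.18, adjusted p = 0.043). The PSAF call in K36A was lost without Col replicate 2 or 3 or K36A replicate 1 or 2 (0.0554 to 0.0728), and that in efs in each fit that left out a library other than Col replicate 1 and K36A replicates 2 and 3 (0.0548 to 0.127). Under quantile normalization the efs difference of PSAF was 0.0647 and thus changed sign.

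PSAN, a lumenal subunit, fell in K36A (−0.39, adjusted p = 0.0098), with −0.17 (adjusted p = 0.29) under quantile normalization, and without Col replicate 1 also in T31A and efs. PSAH1 (−0.34, adjusted p = 0.016) and PSAH2 (−0.22, adjusted p = 0.038), which encode a docking subunit for mobile antenna, fell in efs. Annotated genes on the other strand cover 49 and 20% of their spans. The PSAH1 call was lost without Col replicate 2 (0.0559) or efs replicate 3 (0.0779), and the PSAH2 call without Col replicate 2, T31A replicate 1 or efs replicate 2 or 3 (0.0515 to 0.167). PSAO (AT1G08380), another subunit at the docking side, had 1853, 3016 and 2889 TPM in Col, with T31A at 2599, 2634 and 2703, K36A at 2332, 2038 and 2294 and efs at 2274, 2407 and 2392. Col replicate 1 was the lowest of the 12 libraries, and Col thus enclosed the mutants (log2 differences 0.07, −0.19 and −0.10, adjusted p = 0.77, 0.32 and 0.57). All 9 mutant libraries lay below the other Col libraries, and without Col replicate 1 the differences were −0.16, −0.41 and −0.32 (adjusted p = 0.11, 0.000623 and 0.00167), so that the T31A value changed sign. PSAE1, PSAE2, PSAG, PSAK and PSAL passed in no comparison with Col, and Col replicate 1 was the lowest Col library in each. Without it PSAE1, PSAK and PSAL fell in K36A and efs (−0.53 to −0.23), PSAE2 in efs alone (−0.23, adjusted p = 0.0361), and PSAG in no mutant (−0.71 to −0.53, adjusted p = 0.0531 to 0.163). PSAG (243 to 671 reads a library) and PSAE1 (986 to 1887 reads) have 61.4 and 34.1% of their span under genes on the other strand, and their Col libraries spread from 36.4 to 98.5 TPM and from 75.3 to 162.

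On the oxygen-evolving side of photosystem II, 0 of 6 genes fell in T31A by the limma test (1 at an unadjusted p under 0.05), 3 in K36A and 5 in efs. Those shares are 0, 50 and 83.3%, where 11.1, 8.9 and 17.4% of all genes fell. PSBP1 (AT1G06680), which helps to hold calcium and chloride at the manganese cluster, was at 3362, 4002 and 3993 TPM in Col, with T31A at 3640, 3470 and 3639, K36A at 3105, 3012 and 2928 and efs at 3009, 2912 and 2740. K36A and efs lay below Col and T31A (log2 differences from Col −0.32 and −0.39, SE 0.08, adjusted p = 0.0077 and 0.0012), and T31A lay within Col (−0.07, adjusted p = 0.53). T31A was higher than K36A by 0.25 (adjusted p = 0.032), but 6 of the 12 fits that left out a library ended that call (0.0531 to 0.0997), each of those that left out a T31A or K36A library. PSBO1 (AT5G66570), the main stabilizer of the manganese cluster, had 4393, 4663 and 4780 TPM in Col, with T31A at 4252, 4196 and 4347, K36A at 3899, 4084 and 3863 and efs at 3752, 3906 and 3913. Its second gene PSBO2 (AT3G50820) had 1500, 1618 and 1626 in Col, with T31A at 1520, 1431 and 1531, K36A at 1384, 1451 and 1301 and efs at 1223, 1253 and 1203. Both fell in efs (−0.26 and −0.37, adjusted p = 0.0070 and 3.7e-04), with PSBO2 below every library of the other genotypes.

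Both PSBO genes also fell in K36A (−0.22 and −0.20, adjusted p = 0.024 and 0.033). Those calls were lost without Col replicate 2 or 3 or K36A replicate 1 or 3, at 0.0549 to 0.0786 for PSBO1 and 0.0794 to 0.119 for PSBO2. The PSBQ genes PSBQA and PSBQ2 fell in efs by the same amount (−0.33 and −0.32, adjusted p = 0.0027 each). Without Col replicate 1, PSBQA also fell in T31A (−0.25, adjusted p = 0.0218) and PSBQ2 in K36A (−0.23, adjusted p = 0.00892). PSBR (AT1G79040), the most abundant of the group, was at 11734, 12097 and 10822 TPM in Col, with T31A at 10895, 8964 and 11267, K36A at 9634, 11021 and 8243 and efs at 10262, 10389 and 8972. Its efs libraries lay below Col, but the spread was wide and no difference passed (−0.16, −0.27 and −0.23, SE 0.12, adjusted p = 0.36, 0.10 and 0.14).

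Of the small photosystem II subunits, PSBY alone was called with all 12 libraries. PSBY (AT1G67740) was at 2801, 2020 and 2212 TPM in Col, with T31A at 1758, 1656 and 1781, K36A at 1889, 2190 and 1776 and efs at 1481, 1480 and 1448. T31A and efs lay below Col (log2 differences −0.42 and −0.66, SE 0.11, adjusted p = 0.0093 and 1.6e-04), and K36A overlapped it (−0.26, adjusted p = 0.082). PSBX (AT2G06520) was at 1812, 3490 and 3610 TPM in Col, with T31A at 3219, 3461 and 3188, K36A at 2590, 2114 and 3155 and efs at 2755, 2765 and 2991. Col replicate 1 was lowest of all libraries, and neither PSBX (0.21, −0.13 and −0.000933, adjusted p = 0.48, 0.66 and 0.998) nor PSBW (0.06, −0.15 and −0.09, adjusted p = 0.77, 0.42 and 0.59) passed. For both, all 9 mutant libraries lay below the other Col libraries. Without Col replicate 1, PSBX was at −0.11, −0.46 and −0.32 (adjusted p = 0.543, 0.0105 and 0.0389) and PSBW at −0.15, −0.35 and −0.30 (0.145, 0.0019 and 0.00331), which turned the direction in T31A and called both genes in K36A and efs.

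Summed over each role, the mean level was lower in every mutant than in Col. The major antenna summed to 73670 ± 3115 TPM in Col, with T31A at 64893 ± 5117, K36A at 62309 ± 5579 and efs at 54770 ± 2433. The LHCA1 to LHCA4 sum was 23774 ± 964, 20841 ± 364, 19145 ± 319 and 20614 ± 415, lowest in K36A. Photosystem I subunits summed to 22688 ± 2355 TPM in Col, with T31A at 21431 ± 475, K36A at 19477 ± 366 and efs at 19433 ± 306. The log2 ratio of all antenna TPM to all subunit TPM was 0.96 to 1.13 in Col, 0.91 to 0.99 in T31A, 0.95 to 1.05 in K36A and 0.90 to 0.95 in efs, so that efs lay just below Col while T31A and K36A overlapped it.

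**Figure D3:**
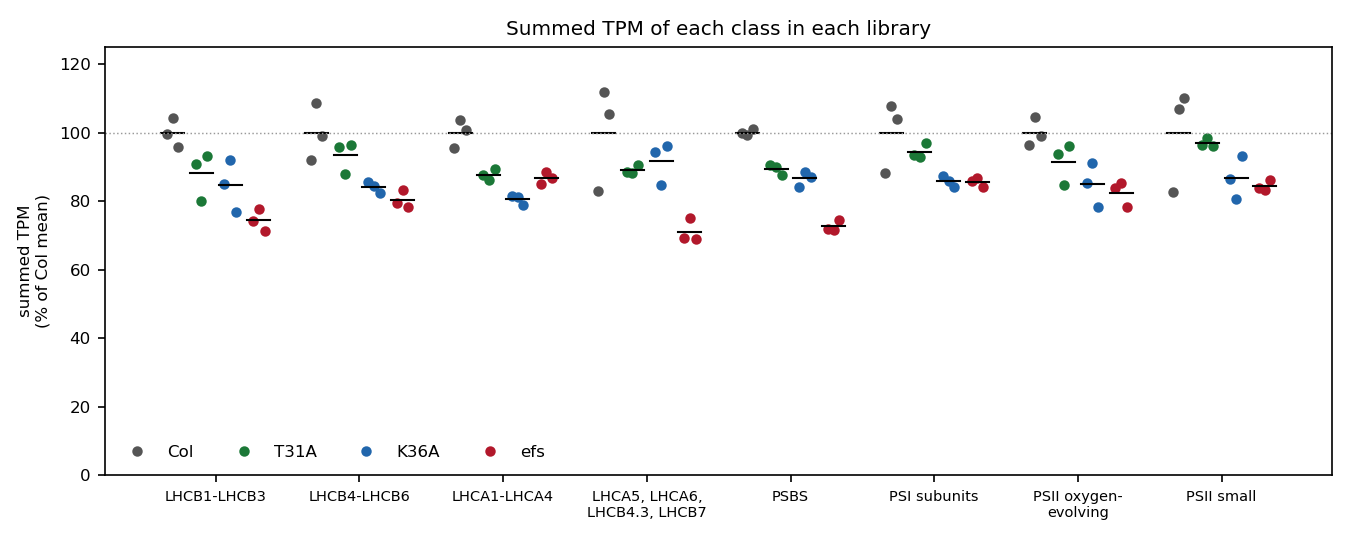
Summed TPM of each role class in each library as percent of the Col mean, with n = 3 libraries a genotype; points are libraries, short lines are genotype means and the dotted line marks 100%. The efs mean is the lowest of the 4 genotypes in each class (54770 TPM against 73670 in Col for the major antenna) other than LHCA1 to LHCA4, where all 3 K36A points are lowest.

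The mutants were then compared with each other. Between T31A and efs, 14 members were higher in T31A and 0 lower, where 16.7% of all genes were higher and 22.4% lower (0 members were lower at an unadjusted p under 0.05 by limma). Without Col replicate 1 the counts were 21 and 1, where 19.1% of all genes were higher and 26.1% lower. The 14 included LHCB1.1, LHCB1.2, LHCB2.1, LHCB2.2, LHCB2.3, LHCB6, LHCA6, PSBS, PSBP1 and PSBO2, with log2 differences of 0.28 to 0.54. The other 4 were PSAP (0.23), PSBQ2 (0.26), LHCB4.3 (0.35) and PSAD2 (0.18), and each lost the call without at least 1 library: PSAP without T31A replicate 2 (adjusted p = 0.0561), PSBQ2 without T31A replicate 3 or efs replicate 1 (0.0507 and 0.0662), LHCB4.3 without T31A replicate 2 or 3 or efs replicate 1 or 3 (0.0515 to 0.127), and PSAD2 without K36A replicate 1, any T31A library or efs replicate 2 or 3 (0.0574 to 0.126). Between K36A and efs, 12 (27.3%) were higher in K36A and 2, LHCA4 and LHCB1.4, were lower, against 20 and 17.4% of all genes. The share that was higher is thus near that of all genes. The count of lower members was 3 without Col replicate 1 or K36A replicate 3, and 1 without K36A replicate 1 or efs replicate 3. LHCB2.1 (0.66), LHCB1.1 (0.68) and LHCB1.2 (0.64) were among the higher ones. Leaving out a library ended 3 of these calls in some fits by limma. They were LHCB6 (adjusted p up to 0.146), PSAP (up to 0.0952) and PSBQA (up to 0.0648). Between T31A and K36A, PSBP1 was higher and LHCB4.3 lower in T31A, where 10.2% of all genes were higher and 18% lower, and the median log2 difference of the members was 0.11. Without Col replicate 1, 8 members were higher in T31A than in K36A and 2 lower, where 12.5% of all genes were higher and 21.5% lower. Without T31A replicate 1 or 3 or K36A replicate 1 or 3, 0 were higher, and 2 were lower without K36A replicate 3.

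Ratios of related genes within a library are free of the scaling between libraries, and 12 such pairs were compared. Each was tested by an exact permutation test of the F statistic, adjusted over the 12 pairs. It ran over all ways to divide the 12 libraries into 4 groups of 3. The test asks whether a ratio differed among the genotypes, and its p-values do not test a given mutant against Col. Which mutant lay above or below Col is a description of the libraries. For LHCB2.1 over LHCB2.2 the log2 ratio was 0.34, 0.20 and 0.25 in Col, with T31A at −0.04, 0.05 and −0.04, K36A at 0.15, 0.16 and 0.20 and efs at −0.17, −0.13 and −0.12. Every mutant library lay below Col and efs below T31A (permutation p = 6.49e-05, the smallest the test can give, adjusted p = 7.8e-04). K36A was only just apart from Col, with K36A replicate 3 at 0.2008 and Col replicate 2 at 0.2036. For LHCB1.4 over LHCB1.5, K36A lay below Col and efs above it, with means of −2.56 ± 0.08 in Col, with T31A at −2.68 ± 0.04, K36A at −2.85 ± 0.04 and efs at −2.34 ± 0.04 (exact permutation, adjusted p = 7.8e-04). For LHCB4.1 over LHCB4.3, the ratio was 8.73 ± 0.22 in Col and 7.67 ± 0.31 in K36A, and the other mutants overlapped Col (exact permutation, adjusted p = 0.017). With permutation kept within replicate numbers, the adjusted p of this pair was 0.069.

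PSBO1 over PSBO2 was 1.54 ± 0.02 in Col and 1.65 ± 0.04 in efs, where all 3 libraries lay above Col. Over all genotypes the exact permutation test gave an adjusted p of 0.024, or 0.0666 without efs replicate 3. Here too, permutation within replicate numbers ended the call (adjusted p = 0.071). Adjusted p was 0.045 by the exact permutation test over all genotypes for LHCB1.3 over LHCB1.4, LHCB2.1 over LHCB2.3 and LHCA2 over LHCA6. By the library values, efs lay below Col for LHCB1.3 over LHCB1.4. Both T31A and efs lay below Col for LHCB2.1 over LHCB2.3, and efs lay above Col for LHCA2 over LHCA6. Those last 3 calls depended on single libraries. LHCB1.3 over LHCB1.4 held without Col replicate 1 or 3, and in the other 10 tests that left out a library was at 0.0619 to 0.126. LHCB2.1 over LHCB2.3 held without Col replicate 2 or 3, and was otherwise at 0.0631 to 0.136. LHCA2 over LHCA6 held without Col replicate 1 or 3 or K36A replicate 2 or 3, and was otherwise at 0.0514 to 0.126. The pairs PSAD1 and PSAD2 (adjusted p = 0.083), PSBQA and PSBQ2 (0.22), PSAH1 and PSAH2 (0.39) and PSAE1 and PSAE2 (0.92) did not pass the exact permutation test. LHCB4.1 over LHCB4.2 did not pass either (0.066), except without Col replicate 1 (0.00608).

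**Figure D4:**
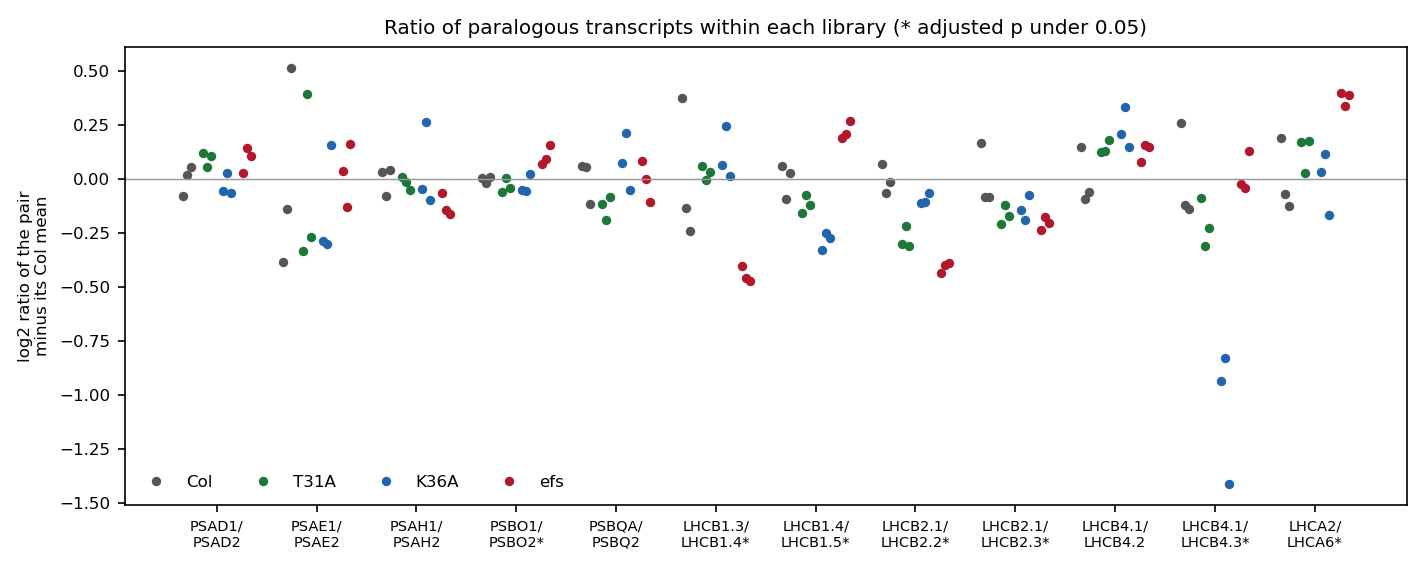
Log2 ratio of TPM for 12 pairs of related genes in each of the 12 libraries, with the Col mean of the pair subtracted. Points are libraries (n = 3 a genotype). An asterisk marks an adjusted p under 0.05 by the exact permutation test over all genotypes. For LHCB2.1 over LHCB2.2 all 9 mutant points lie below the 3 Col points, though the highest K36A point nearly meets the lowest Col point. For LHCB4.1 over LHCB4.3 the K36A points lie below all others.

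Other nuclear photosynthesis genes, outside the photosystems and their antennae, also fell in part. Of 59 such genes, 15 fell and 3 rose in T31A, 15 fell and 3 rose in K36A, and 37 fell and 1 rose in efs. The shares that fell were 25.4, 25.4 and 62.7%, beside 27.3, 47.7 and 61.4% of the members. Of all genes, 11.1, 8.9 and 17.4% fell and 15.7, 22.6 and 31.4% rose, and the counts of the smaller lists below stand beside the same shares. The fall in T31A and efs was thus not particular to the members. The median log2 differences of the 59 genes were −0.12, −0.13 and −0.28. Without Col replicate 1 the falls numbered 24 in T31A and 26 in K36A, and in T31A they numbered 7 without T31A replicate 1 and 9 without T31A replicate 3. Among 14 genes of electron transport and ATP synthase, 3, 5 and 9 fell, and the plastocyanin gene PETE1, named after its values were seen, rose in T31A and efs (log2 differences 0.39 and 0.23, adjusted p = 0.0018 and 0.023). Its efs call was lost without Col replicate 3 or efs replicate 1 or 2. FD1, a leaf ferredoxin, was at 640 ± 14.8 TPM in Col, with T31A at 406 ± 16.5, K36A at 568 ± 47.8 and efs at 374 ± 16.5, and fell in T31A and efs (log2 differences −0.66 and −0.77, adjusted p = 7.1e-06 and 4.0e-07). ATPD, a subunit of ATP synthase, fell from 1242 ± 47.0 to 1067 ± 27.3, 1073 ± 24.2 and 881 ± 21.6 TPM. Among 18 Calvin cycle genes, which fix carbon dioxide, 5, 6 and 13 fell. The transketolase TKL1 went from 1255 ± 86.8 TPM to 1073 ± 49.5, 1062 ± 30.2 and 780 ± 22.2, all called, and phosphoribulokinase (PRK) fell in T31A and efs, from 1309 ± 35.2 to 1149 ± 6.04 and 889 ± 2.44.

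Of 8 genes that insert or modify the antenna, 3, 2 and 6 fell in T31A, K36A and efs. CAO, the enzyme that makes chlorophyll b, was named after its values were seen and rose in T31A (0.25, adjusted p = 0.013). The kinase STN7, which phosphorylates mobile antenna, fell from 95.0 ± 5.37 TPM to 69.7 ± 0.283, 84.5 ± 2.13 and 56.0 ± 2.18, with log2 differences of −0.44, −0.17 and −0.75 (adjusted p = 7.4e-05, 0.045 and 1.2e-07). TAP38, the phosphatase that acts against it, had −0.13, −0.25 and −0.54 (adjusted p = 0.086, 0.0025 and 1.2e-06). Of 8 factors that assemble photosystems, 2, 2 and 4 fell. HCF244 and HCF173, which are needed to make the D1 protein of photosystem II, fell in each mutant, with log2 differences of −0.34, −0.28 and −0.49 for HCF244 and −0.48, −0.30 and −0.54 for HCF173. Of 3 further CURT1 genes, 0 fell by the limma test in any mutant (0 at an unadjusted p under 0.05) and CURT1D, named after its values were seen, rose in T31A (0.53, adjusted p = 0.0056); CURT1C (−0.16, −0.14 and −0.18) and CURT1A (−0.03, −0.20 and −0.22) did not pass.

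Of 8 genes for relatives of the antenna proteins outside the regular antenna, 2 fell in T31A, 3 rose and 0 fell in K36A (0 at an unadjusted p under 0.05 by limma), and 5 fell in efs. LIL3.1, which holds enzymes of chlorophyll synthesis at the membrane, fell in efs (−0.49, adjusted p = 4.4e-06) and did not pass in T31A (−0.02) or K36A (0.10). SEP2, a stress-enhanced protein, fell in T31A (−0.26, adjusted p = 0.029) and efs (−0.69, adjusted p = 7.2e-06). The 3 that rose in K36A were LIL3.2 (0.19, adjusted p = 0.034) and the early light-induced proteins ELIP1 and ELIP2, which are made under excess light, all named after their values were seen. ELIP1 was at 2.93, 2.39 and 3.17 TPM in Col, with T31A at 3.39, 2.56 and 2.49, K36A at 8.37, 10.8 and 7.82 and efs at 1.06, 1.32 and 0.783. K36A lay above and efs below Col (log2 differences 1.38 and −0.90, adjusted p = 1.2e-05 and 1.7e-04). ELIP2 was at 0.598 ± 0.107 TPM in Col and 2.73 ± 1.11 in K36A (log2 difference 1.18, adjusted p = 0.0015 by limma). Its Col level lay under the 1 TPM that the filter asks of 3 libraries, and its K36A level over it. ELIP2 thus entered the test through the libraries where it was high. Its call, and its place among the 3 that rose, are therefore only a description of a gene near the floor.

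**Figure D5:**
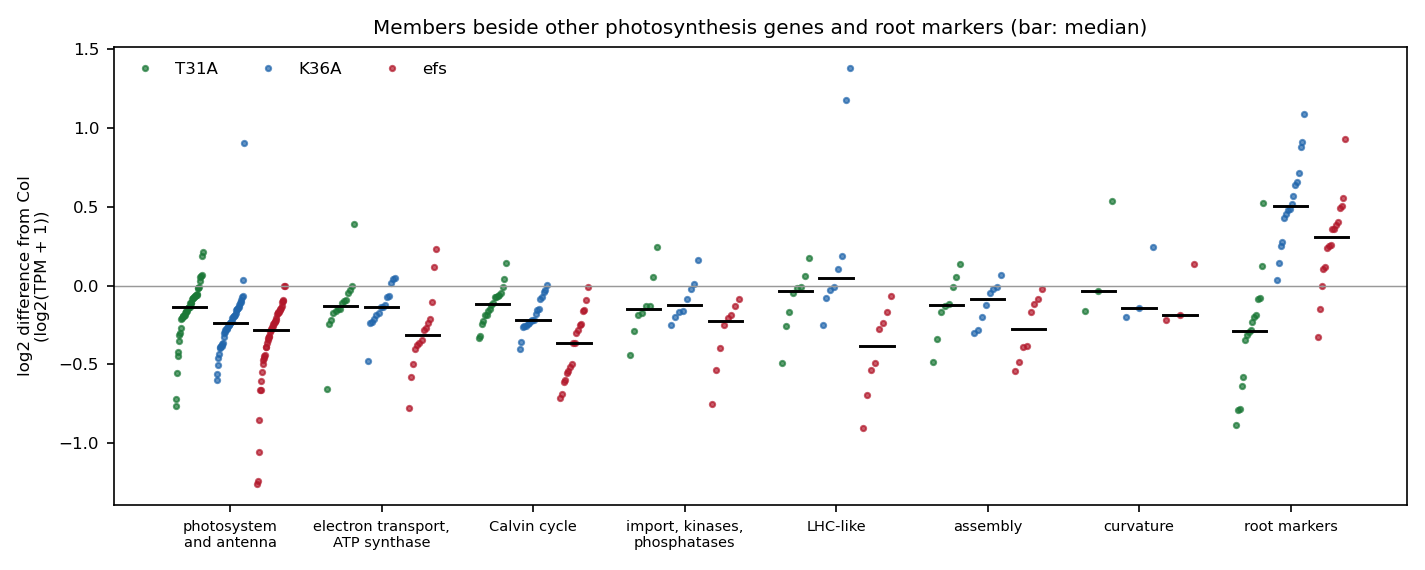
Log2 difference from Col on the log2(TPM + 1) scale for the 44 members, 6 lists of other photosynthesis genes and the root markers, in T31A, K36A and efs; each point is a gene (means of 3 libraries) and the bar is the median of the list. The photosynthesis lists have medians below 0 in efs, and the root markers have a median above 0 in K36A and efs and below 0 in T31A.

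Root markers, which stand for the other main tissue of a seedling, also differed between genotypes. Of 20 fixed markers 16 were tested, and 1 rose and 7 fell in T31A, 11 rose and 0 fell in K36A (0 at an unadjusted p under 0.05 by limma), and 6 rose and 1 fell in efs. The share that fell in T31A was 43.8%, where 11.1% of all genes fell, and the share that rose was 68.8% in K36A, where 22.6% did. In efs 37.5% rose, near the 31.4% of all genes. Their median log2 differences were −0.29, 0.50 and 0.31. In sum they reached 2717 to 2978 TPM in the Col libraries, 2247 to 2338 in T31A, 3021.7 to 3071.4 in K36A, and 2868 to 2931 in efs, most of it from BGLU23 with 2497 TPM in Col and 2052, 2562 and 2491 in the mutants. At most 1 of the 20 markers was at 0 in a library. The median root marker was thus higher than in Col beside a lower median member in K36A and efs, both medians were lower in T31A, the summed root level of efs lay within the Col range, and the part of tissue make-up in the members' results was not tested.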

How the data were processed

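RNA was sequenced from 12 seedling libraries, 3 for each of 4 genotypes. Per the submitters' processing notes, fastp 0.20.1, HISAT2 2.1.10, DESeq2 1.26.0 and the genome TAIR10 were used; not given in the sources used here are the read counter, its use of strand and its treatment of reads that fit several genes. Columns of the deposited table are headed as counts, but each sums to 1000000 and the values equal reads per gene span, so they are TPM made by the authors. Depth was recovered from the step of 1 read, with gene spans from the RefSeq annotation of TAIR10.1 (23745 of 23916 rows; 171 had none). It came to 17621000 to 34098031 reads per library. The number of reads behind a value limits its precision, and the spread between libraries covers more than counting error.

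Genes with at least 1 TPM in at least 3 libraries (19984) were tested on log2(TPM + 1) with limma 3.58.1 in R 4.3.3, with a mean-variance trend and 1 fit over 4 genotypes, and p-values were adjusted by Benjamini-Hochberg over all genes tested. A fold change on this scale understates the change of low genes. Ratios of 12 pairs of related genes were compared over all genotypes by an exact permutation test of the F statistic, adjusted over the pairs. For only a pair of genotypes, such an exact permutation test cannot go below p = 0.1 with 3 libraries each. The pipeline was tested on simulated data. Promoters were read from the RefSeq genome of TAIR10.1, in which all 44 members were found by locus code.

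Members and lists were chosen with earlier results of these data known. Values in every library are given for the members with the lowest and highest log2 difference between efs and Col in each role, for members above Col in a mutant, and for both genes of each pair whose ratio passed; of each related list, the 2 genes with the smallest p in efs are named. Others are named after their values were seen. Alternatives left out each library in turn and changed the pseudocount (0.1 and 5), the filter, the scaling, the length and GC trend, the replicate block and the libraries fitted.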

Additional observations from a re-analysis of the deposited data

Results flagged for a closer look

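For 2 members the estimates in K36A and efs lay on opposite sides of Col and the direct comparison of the 2 mutants passed limma's test. LHCB4.3 was higher in K36A than in efs by 1.07 on the log2 scale (adjusted p = 6.2e-06, 3 of 3 K36A libraries above all efs libraries), with 18.4 ± 2.22 TPM in K36A, 8.24 ± 0.996 in efs and 9.41 ± 1.46 in Col. LHCB1.2 was higher in K36A than in efs by 0.642 (adjusted p = 3.2e-05, 3 of 3 libraries above all efs libraries), with 5471 ± 152 TPM in K36A, 3508 ± 179 in efs and 5345 ± 485 in Col. The difference of LHCB1.2 between K36A and Col (0.04) did not pass. Without Col replicate 1 it was −0.03 (limma, adjusted p = 0.78), on the same side as efs (−0.67). The efs libraries of LHCB4.3 overlapped Col, and that difference did not pass either.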

How the results depend on the processing

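Leaving out a library in turn, the members that fell numbered 7 to 14 in T31A, 17 to 31 in K36A and 22 to 38 in efs, and those that rose 0 to 0, 1 to 1 and 0 to 0. The medians ranged from −0.163 to −0.095, −0.294 to −0.2 and −0.359 to −0.256. Between mutants, T31A was higher than K36A for 0 to 8 members and lower for 1 to 2, T31A higher than efs for 11 to 21 and lower for 0 to 1, and K36A higher than efs for 10 to 14 and lower for 1 to 3. Related photosynthesis genes that fell numbered 7 to 24, 10 to 26 and 32 to 45, and those that rose 2 to 3, 2 to 3 and 0 to 1, where the count in efs was 0 without Col replicate 3 or efs replicate 1 or 2. Pairs called numbered 3 to 7, with 4 without any T31A library, K36A replicate 1 or efs replicate 1 or 2, and 3 without efs replicate 3. Over the members' comparisons with Col and their calls between mutants, 1805 leave-one-out values stayed on their side of the threshold, 109 lost the call and 30 gained it. Comparisons between mutants that were not called with all 12 libraries were left out, so gains there are not among the 30.

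Fitting 2 genotypes at a time gave 7 falls in T31A and 9 in K36A (related genes 9 and 6), 2 members higher in T31A than K36A, and 27 higher and 1 lower in T31A than efs. Quantile normalization gave 7 and 9 falls, medians of −0.052, −0.075 and −0.184, 0 members higher and 2 lower in T31A than K36A, 2 lower in T31A than efs, and 0 related genes risen in efs; PSAF in efs reversed to 0.0647. With the length and GC trend removed, 37 members fell in K36A, the K36A and efs medians were −0.432 and −0.431, 16 members were higher in T31A than K36A, 24 higher in T31A than efs and 4 lower in K36A than efs, and related genes fell in 24 cases in T31A and 34 in K36A, with 0 risen in efs. Median-of-ratios factors gave K36A and efs medians of −0.345 and −0.389, 24 and 28 related genes fallen in T31A and K36A and 0 risen in efs. Without the filter, 0 members were higher in T31A than K36A and 1 lower in K36A than efs. A mean of at least 5 TPM, or a pseudocount of 5, gave 2 members lower in T31A than K36A, and the former 1 related gene risen in K36A. Scaling to the genes other than the members, chosen after seeing the data, gave 0 related genes risen in efs. The cause of these shifts was not tested.

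Replicate numbers were shared by the genotypes, but deviations of same-numbered libraries correlated between −0.244 and 0.359, not all over 0.1, and the main fit used no replicate block. For replicate 3 the correlations among Col, K36A and efs were 0.219 to 0.359, and those of T31A with them −0.18 to −0.128. Whether some libraries shared a batch was not tested. With the replicate block, 11, 19 and 26 members fell, and 0 were higher in T31A than K36A. It left 2 pairs called, LHCB2.1 over LHCB2.2 and LHCB1.4 over LHCB1.5. The block with the length and GC trend removed gave 38 falls in K36A, medians of −0.432 and −0.431 in K36A and efs, 17 members higher in T31A than K36A, 24 higher in T31A than efs, 23 and 35 related genes fallen in T31A and K36A, and 0 risen in efs.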
